A study of Malus domestica with 15 samples.

Results

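The comparison described here sets the skin of apples (Malus domestica) treated with 1-methylcyclopropene (1-MCP) and kept in the cold for 2 months against the skin of untreated apples at harvest. It was chosen by the sample titles, which give 3 samples to each of these groups, 6 of the 15 samples of the series. The harvest fruit had received no 1-MCP and no storage, and the treated fruit had been exposed to 0.7 µl/L of 1-MCP. The other groups, with 3 samples each, were control fruit after 2 months of cold and fruit of either treatment that had then spent 7 days at shelf life. The deposited table gives each of the 5 groups 1 value per locus, in FPKM (sequenced fragments for each kilobase of a transcript, relative to the total of mapped fragments). Of its 80965 loci, 42287 (52.2%) were compared, namely those with a mean of at least 1 FPKM over the 5 groups and with 0 in none of them.

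Ethylene is the gaseous hormone that drives the ripening of climacteric fruits such as apple, in which its synthesis rises as the fruit ripens and feeds back on itself. The hormone acts by switching off receptors that otherwise repress its response, and 1-MCP occupies those receptors so that ethylene cannot. The gas is used to keep stored apples firm and to prevent superficial scald, a browning of the skin that follows cold storage and that the series title names as its subject.

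The table names loci by assembled locus (CUFF numbers), by apple gene model (MDP numbers), or by both. Of its 63541 gene model identifiers, 0 were found in the RefSeq gene table of assembly GDT2T_hap1, and the table itself holds no gene name, function or position. No locus can therefore be given a gene name or a role, pathway lists could not be filled, and the labelled tissue could not be checked against marker genes. Each group is 1 value without a spread, how the libraries behind it were combined is not stated, and depth is unknown, so no difference below has a replicate check or a test. Differences are on the log2(FPKM + 1) scale, on which changes at low FPKM come out too small. A locus was counted as different at a difference of at least 1 in size, a limit chosen for its size alone and without a test of significance. Just inside the filter on the mean, MDP0000037177 had 1.13 FPKM at harvest and 1.46 FPKM in stored 1-MCP fruit. Just outside it, CUFF.17540 (MDP0000181163) had 0.666 and 1.57 FPKM.

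In skin of stored 1-MCP fruit the differences from harvest were balanced around 0, with a longer tail of loci that were lower. The median FPKM over the loci compared was 9.43 at harvest and 9.26 in stored 1-MCP fruit, and the median difference was 0.01 log2 units. FPKM is relative to the total of each library, so these medians say nothing of the amount of RNA in the skin. The middle part of the loci, from the 25th to the 75th percentile, lay between -0.40 and 0.42. The 1st percentile lay at -2.56 and the 99th at 1.95, so the tail of lower loci reached further than that of higher loci. Of the 42287 loci, 3067 (7.25%) were higher and 3578 (8.46%) were lower in stored 1-MCP fruit, together 15.7%. This order depended on the scaling, since 3284 were higher and 3256 lower once each column had been scaled by its 75th percentile. It was kept with trimmed mean scaling (3003 higher and 3628 lower) and with quantile normalization (3282 and 3491). In skin as a whole, fewer cells of a type and less RNA per cell cannot be told apart. The harvest fruit were untreated, so the treatment and the storage cannot be told apart in this comparison either.

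**Figure D1:**
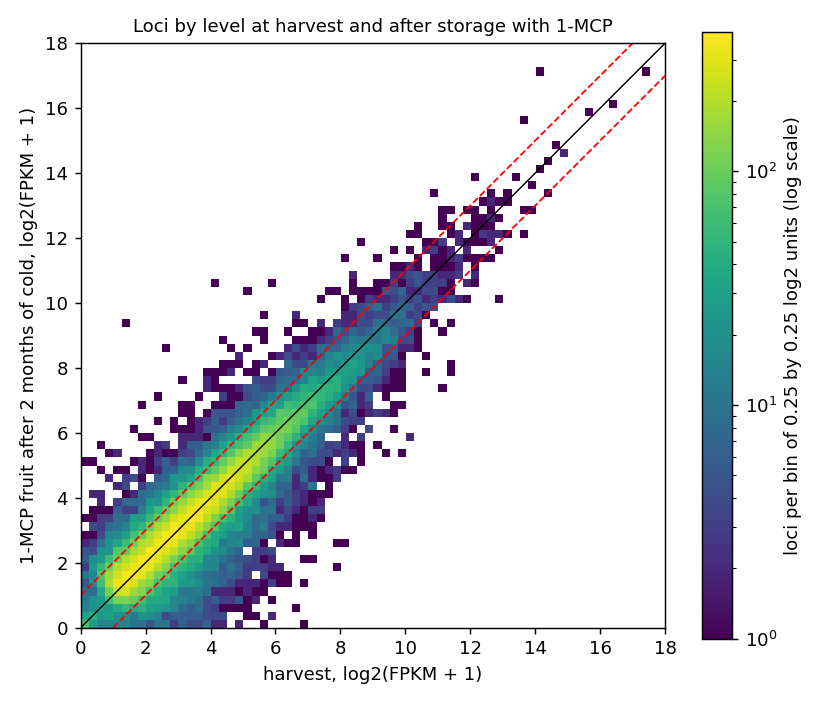
Loci compared, by level at harvest (horizontal axis) and in 1-MCP fruit after 2 months of cold (vertical axis), both in log2(FPKM + 1); colour gives the number of loci per bin on a log scale, the solid line marks equal levels and the dashed lines a difference of 1 log2 unit. Most loci lie between the dashed lines, 3067 lie on or above the upper one and 3578 on or below the lower one, and the low right side is the more widely filled.

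Among larger differences the lower loci outnumbered the higher ones. At a difference of at least 2 log2 units there were 391 higher and 883 lower loci, and at 3 units 80 higher and 228 lower. At 4 units 19 were higher and 57 lower, and at 6 units 2 were left in each direction. From below 1 FPKM at harvest, 78 loci reached at least 5 FPKM in stored 1-MCP fruit, while 247 loci with at least 5 FPKM at harvest stood below 1 FPKM after storage.

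Control fruit kept in the cold for the same 2 months are set beside these numbers, with the caution that both counts use the same harvest values and that the difference between them was not tested. In control fruit 2576 loci (6.09%) were at least 1 unit higher and 5454 (12.9%) at least 1 unit lower than at harvest. At 3 units control fruit had 306 higher and 425 lower loci. At 4 units they had 146 higher loci, against the 19 of 1-MCP fruit, and 132 lower loci, against 57. At 5 units they had 77 higher loci against 6, and 40 lower loci against 10. Thus 1-MCP fruit had more loci than control fruit among those at least 1 unit higher and fewer among those at least 2 units higher (391 against 768). Among lower loci their count was below that of control fruit at each size from 1 to 6 units. These counts used unscaled values. Over all loci the median difference from harvest was -0.15 in control fruit and 0.01 in 1-MCP fruit. The counts of control fruit were not repeated under other scalings, so whether these orders depend on the scaling was not tested.

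**Figure D2:**
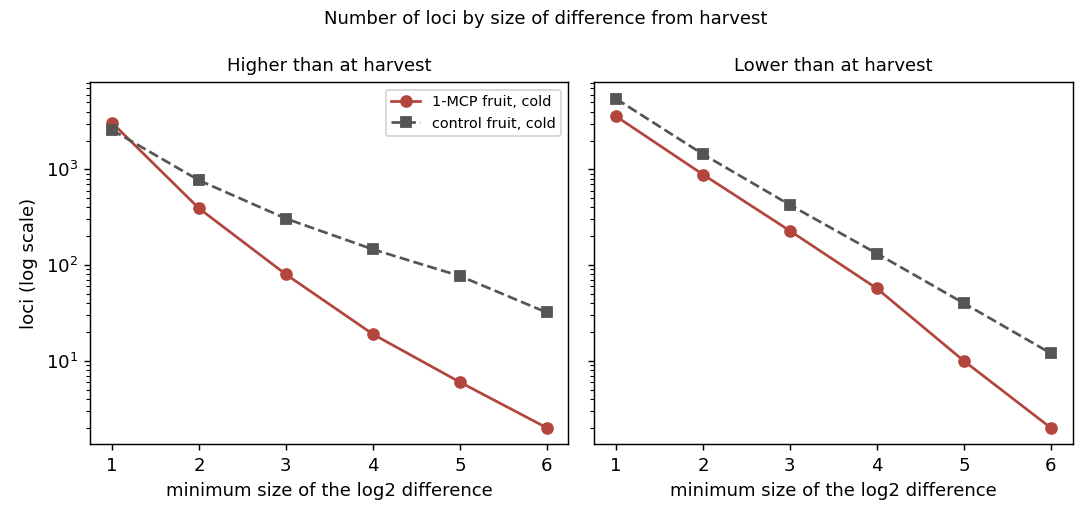
Number of loci (log scale) that differed from harvest by at least the size on the horizontal axis, in log2 units, for 1-MCP fruit (circles) and control fruit (squares) after 2 months of cold; left, higher than at harvest, right, lower. The lines of higher loci cross between 1 and 2 units and stand at 19 and 146 loci at 4 units, while the lines of lower loci do not cross. The values were not scaled between groups.

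The kind of locus went with the direction of the difference. Of the loci compared, 23509 were assembled loci with a gene model, 11977 were assembled loci without one, called unannotated here, and the remaining 6801 were gene models listed with no assembled locus. Some loci repeat one another, since 852 (508 assembled loci with a gene model and 344 gene models without an assembled locus) shared all 5 values with at least 1 other. They held 418 distinct sets of values, 46 of which joined both kinds, and each such locus is counted on its own here. Unannotated loci leaned upward, with 12.7% higher and 5.51% lower and a median difference of 0.19 log2 units. Gene models without an assembled locus leaned downward, with 6.81% higher and 19.1% lower and a median of -0.21. Of their 1298 lower loci, 156 had a mean below 1 FPKM in the groups outside the comparison. These passed the filter only through the columns compared. Assembled loci with a gene model differed least often, with 4.63% higher and 6.89% lower and a median of -0.02, which was 0.03 with 75th percentile scaling. The median of unannotated loci stayed between 0.19 and 0.24 and that of gene models without an assembled locus between -0.21 and -0.16 under the 3 scalings tried. Of the 531 assembled loci that carry several gene models, 9.60% were higher and 9.04% lower. Reads from overlapping loci and from opposite strands cannot be separated in these values, since the library kit keeps no record of the strand.

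The tail of strongly lower loci was made up mostly of gene models without an assembled locus. They were 146 of the 228 loci at least 3 units lower and 41 of the 57 at least 4 units lower, although they were the fewest of the 3 kinds among the loci compared. With loci of identical values counted once, a step chosen after seeing the data, these numbers were 141 of 221 and 38 of 54. Some of these loci, such as MDP0000184619 and MDP0000496434, were below 1 FPKM in every stored group and passed the filter only through harvest. How many did so at these sizes was not counted, and the make-up of the tail without them was not tested. Among the 80 loci at least 3 units higher, 28 were of this kind, 26 were assembled loci with a gene model and 26 were unannotated. Measured against harvest in control fruit, unannotated loci had a median of -0.23, below the 0.19 of 1-MCP fruit. The medians of control and 1-MCP fruit were -0.11 and -0.02 for assembled loci with a gene model, and -0.15 and -0.21 for gene models without an assembled locus. The harvest values are shared by both comparisons, and the contrast between them was not tested. Over all loci the medians of control and 1-MCP fruit were -0.15 and 0.01, and those of control fruit were not repeated under other scalings.

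**Figure D3:**
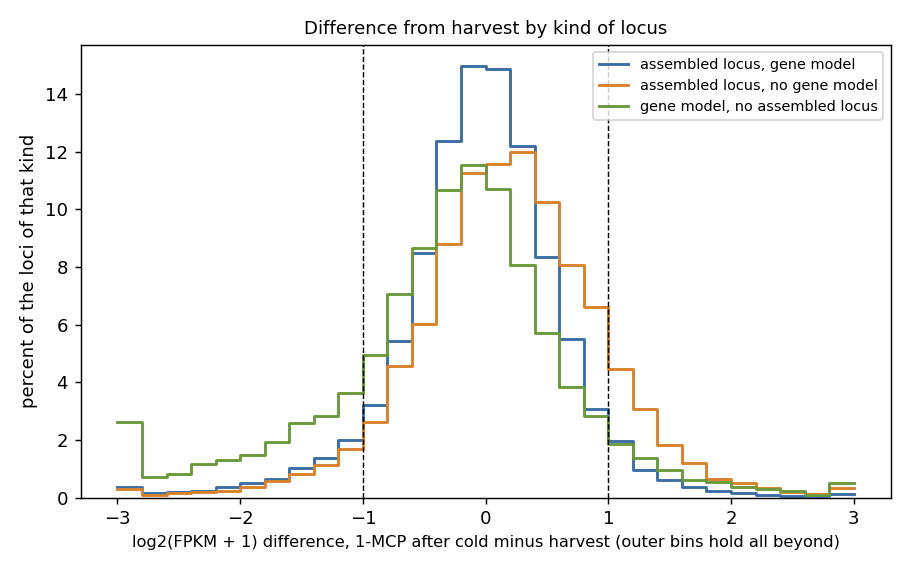
Distribution of the difference between stored 1-MCP fruit and harvest, in log2(FPKM + 1), for the 3 kinds of locus, as percent of the loci of each kind per bin; dashed lines mark 1 log2 unit in each direction and the outermost bins hold all loci beyond them. Unannotated loci (median 0.19) lie to the right of assembled loci with a gene model (median -0.02), and gene models without an assembled locus (median -0.21) have the heaviest left tail.

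From 1 to below 100 FPKM these leanings were also present among loci of like abundance. From 100 to below 1000 FPKM the shares higher and lower were closer to each other, and the median of unannotated loci was -0.04. The median of gene models without an assembled locus was -0.21 there, as it was from 1 to below 10 FPKM. At 1000 FPKM or more, where loci were few, unannotated loci leaned upward and gene models without an assembled locus split about evenly, with a median of 0.11. Abundance was taken as the mean FPKM of the 3 groups outside the comparison, so that neither column compared set it. From 1 to below 10 FPKM, 12.4% of unannotated loci were higher and 4.09% lower, against 5.50% and 19.0% of gene models without an assembled locus. From 10 to below 100 FPKM the shares were 13.1% and 6.58% for unannotated loci, and 8.30% and 17.2% for gene models without an assembled locus. From 100 to below 1000 FPKM unannotated loci were about as often higher (14.2%) as lower (14.4%), while gene models without an assembled locus split into 10.2% higher and 14.9% lower. At 1000 FPKM or more, 12 of 51 unannotated loci were higher and 5 lower, and the 91 gene models without an assembled locus split into 13 higher and 12 lower. Among the 254 loci at 1000 FPKM or more, 40 were higher and 25 lower, while the loci from 1 to below 10 FPKM had 1561 higher and 1748 lower. Loci below 1 FPKM in the other groups could pass the filter only through harvest or stored 1-MCP fruit, so their 86 higher and 313 lower loci are not read as a result. The SD of the differences across loci was 0.77 from 1 to below 10 FPKM and 1.08 at 1000 FPKM or more.

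Single loci are given by identifier, as the 2 with the largest difference in each direction for each kind of locus, provided that at least 5 FPKM was reached at harvest or in stored 1-MCP fruit. Among assembled loci with a gene model, CUFF.42628 (MDP0000253926 and MDP0000351156) stood at 5.31 FPKM at harvest and 379 FPKM in stored 1-MCP fruit, a log2 difference of 5.91. In control fruit it was at 6.35 FPKM in the cold and 4.43 FPKM after shelf life, and in 1-MCP fruit after shelf life at 8.76 FPKM. The locus was thus high in 1 of the 5 groups. CUFF.41906 (MDP0000348219) went from 2.68 to 123 FPKM (5.08) and back to 3.95 FPKM in 1-MCP fruit at shelf life. Control fruit had it at 1.5 FPKM in the cold and 76.2 FPKM after shelf life, so the high value fell at a different time in each treatment.

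Among unannotated loci, CUFF.6274 had the largest positive difference, from 36.2 FPKM at harvest to 1444 FPKM in stored 1-MCP fruit (5.28). It was at 561 FPKM in control fruit in the cold, and at 80.0 and 567 FPKM after shelf life in control and 1-MCP fruit. CUFF.16426 went from 0.580 to 52.0 FPKM (5.07) and stood at 107 FPKM in 1-MCP fruit after shelf life. Control fruit had this locus at 4.23 and 10.5 FPKM at these times, above harvest and below both 1-MCP values. The 2 gene models at the top of their kind were higher than at harvest in each stored group. MDP0000342540, from 1.55 to 698 FPKM (8.10), was at 147 FPKM in 1-MCP fruit after shelf life and at 127 and 361 FPKM in control fruit before and after it. MDP0000292031, from 15.1 to 1455 FPKM (6.50), was at 288 FPKM in 1-MCP fruit after shelf life and at 512 and 1628 FPKM in control fruit. After shelf life both gene models were thus lower than before it in 1-MCP fruit and higher in control fruit.

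Of the loci with the largest negative differences, some were below 1 FPKM in every stored group, and CUFF.45902 was low with 1-MCP alone. The others were below harvest in control fruit and lower again with 1-MCP. CUFF.30789 (MDP0000293103) stood at 59.5 FPKM at harvest and 0.409 FPKM in stored 1-MCP fruit (-5.42), and between 0.0414 and 0.248 FPKM in the other stored groups. MDP0000184619 was at 115 FPKM at harvest and 0.0238 FPKM with 1-MCP (-6.83), and did not exceed 0.0878 FPKM in any stored group. For both, harvest was the only group with a value above 1 FPKM, so harvest alone brought them past the filter on the mean. Their stored values were near 0, so the size of these differences was set mostly by the harvest value. CUFF.45902 (MDP0000388769) was at 38.0 FPKM at harvest and 0.369 FPKM in stored 1-MCP fruit (-4.83), and at 0.293 FPKM with 1-MCP after shelf life. Control fruit had it at 74.1 FPKM in the cold and 60.8 FPKM after shelf life, above harvest.

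The other 3 loci of this group were lower in control fruit than at harvest and lower again in 1-MCP fruit. The unannotated CUFF.40251 went from 225 to 2.65 FPKM (-5.95), with 36.5 and 31.0 FPKM in control fruit before and after shelf life and 7.64 FPKM in 1-MCP fruit after it. The unannotated CUFF.33977 went from 54.6 to 0.748 FPKM (-4.99), with 7.45 and 4.005 FPKM in control fruit and 0.231 FPKM in 1-MCP fruit after shelf life. MDP0000187921 went from 97.5 to 0.513 FPKM (-6.02), with 4.29 and 7.55 FPKM in control fruit and 0.637 FPKM in 1-MCP fruit after shelf life. In each of them both 1-MCP values lay below both control values.

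**Figure D4:**
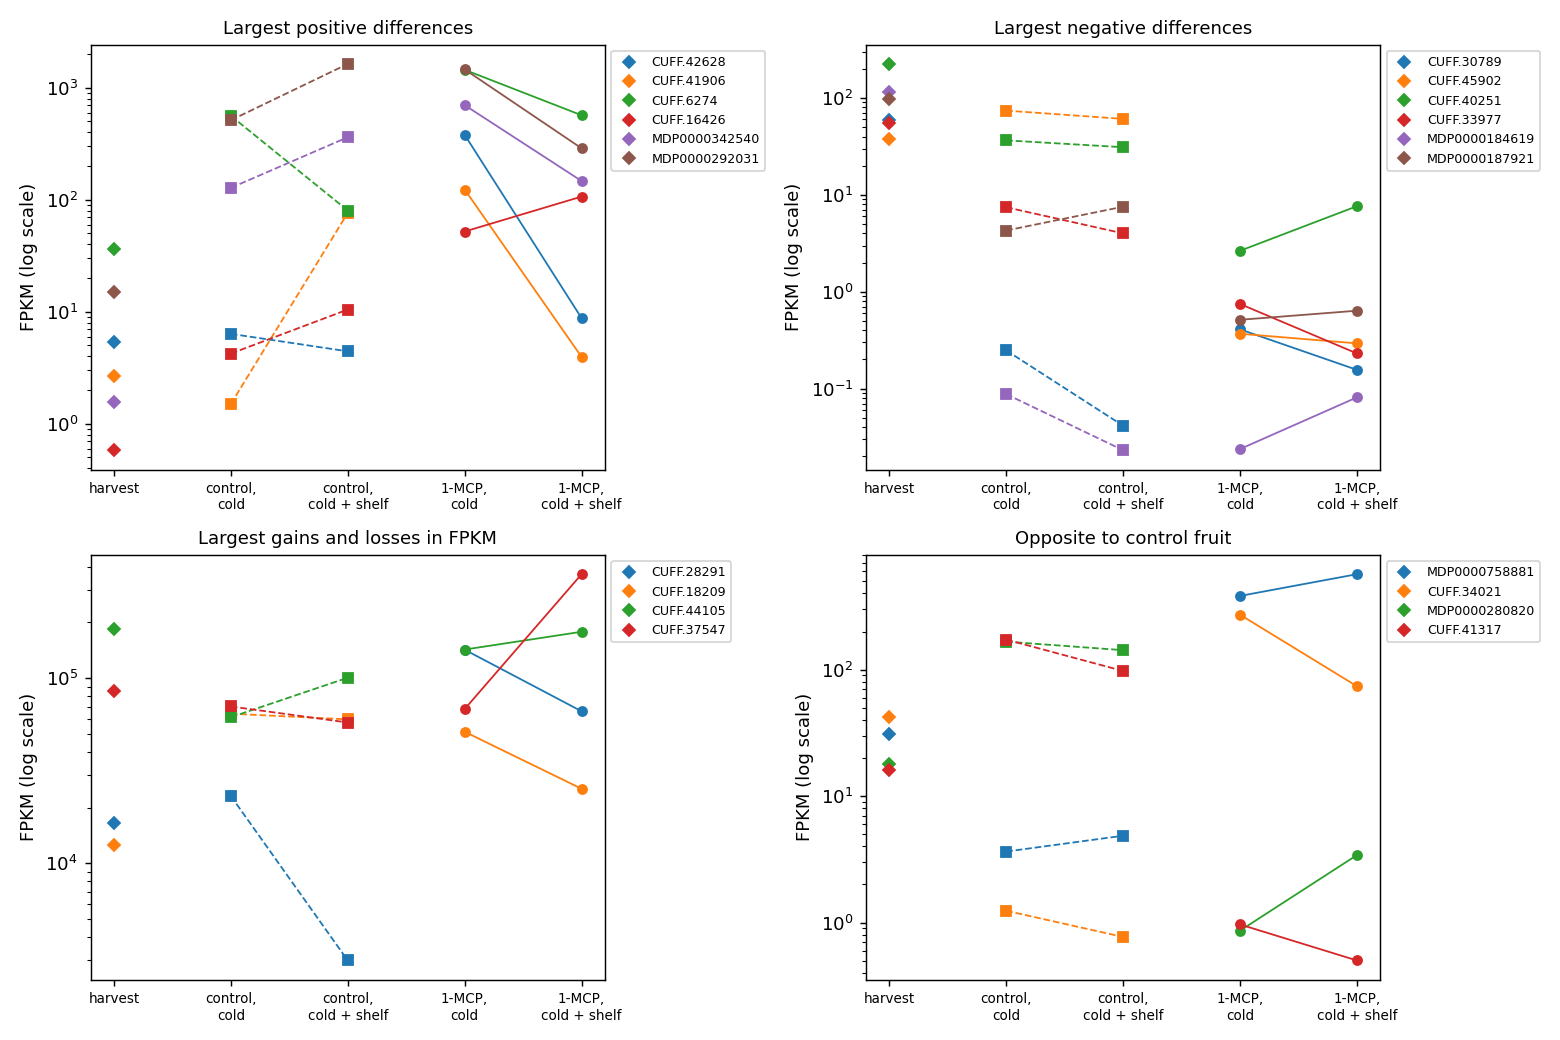
FPKM (log scale) of the named loci in the 5 groups, with diamonds for harvest, squares and dashed lines for control fruit and circles and solid lines for 1-MCP fruit before and after shelf life; each point is the 1 deposited value of a group. CUFF.42628 is high in stored 1-MCP fruit alone (379 FPKM), and CUFF.45902 is below 1 FPKM in both 1-MCP groups alone.

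In absolute terms a single locus made up much of the gain among the loci compared, which leave out those listed at 0. CUFF.28291 (MDP0000033287) went from 16538 FPKM at harvest to 142470 FPKM in stored 1-MCP fruit, a log2 difference of 3.11. Its share of the summed FPKM of all loci went from 0.621% to 5.12%, and its gain was 34.1% of the summed gain of the 3067 higher loci. In 1-MCP fruit after shelf life it was at 66238 FPKM, and control fruit had it at 23084 FPKM in the cold and 2985 FPKM after shelf life. Among the loci with no 0, the next largest gain was that of the unannotated CUFF.18209, from 12525 to 51341 FPKM (2.04), which reached 64284 FPKM in control fruit in the cold. The first locus was thus highest in stored 1-MCP fruit and the second in stored control fruit.

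The largest losses in FPKM belonged to loci that differed little in proportion. CUFF.44105 (MDP0000466190), the most abundant locus at harvest, went from 184965 to 142731 FPKM (-0.37) and was at 61510 FPKM in control fruit in the cold. CUFF.37547 (MDP0000243585) went from 85225 to 68088 FPKM (-0.32) and reached 364444 FPKM in 1-MCP fruit after shelf life. Neither met the size rule. Of the 10 most abundant loci at harvest, 7 were also among the 10 most abundant in stored 1-MCP fruit, and 1 of the 10 differed by at least 1 log2 unit. Summed over loci, the 3067 higher loci went from 127772 to 497104 FPKM and the 3578 lower loci from 361409 to 123224 FPKM.

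Some loci differed from harvest in opposite directions in 1-MCP and control fruit. MDP0000758881 stood at 31.0 FPKM at harvest, 383 FPKM in stored 1-MCP fruit (3.58) and 3.64 FPKM in stored control fruit (-2.79). After shelf life 1-MCP fruit had it at 568 FPKM and control fruit at 4.86 FPKM. CUFF.34021 (MDP0000209143) had 42.0 FPKM at harvest, 272 FPKM in stored 1-MCP fruit (2.66) and 1.24 FPKM in stored control fruit (-4.26). After shelf life 1-MCP fruit had this locus at 73.9 FPKM and control fruit at 0.769 FPKM. In the other direction, MDP0000280820 went from 17.8 FPKM at harvest to 0.862 FPKM with 1-MCP (-3.34) and 166 FPKM in control fruit (3.15). After shelf life 1-MCP fruit had it at 3.41 FPKM and control fruit at 142 FPKM. CUFF.41317 (MDP0000261679) went from 16.0 FPKM to 0.966 FPKM with 1-MCP (-3.11) and 173 FPKM in control fruit (3.36), and stood at 0.501 and 97.6 FPKM after shelf life. For all 4 loci the side on which 1-MCP fruit lay was the same in the cold and after shelf life.

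The loci chosen on this comparison were then followed in the groups it does not use. The 3067 higher loci had a median of 4.66 FPKM at harvest and 15.0 FPKM in stored 1-MCP fruit, the columns that chose them. In 1-MCP fruit after shelf life their median was 10.1 FPKM, against 6.96 and 5.69 FPKM in control fruit before and after shelf life. The difference between 1-MCP and control fruit after shelf life shares no value with the comparison that chose the loci. Its median was 0.74 over the higher loci and 0.28 over all loci, and 36.7% of the higher loci were at least 1 unit higher with 1-MCP, against 14.6% of all loci. Under the 3 scalings tried, the median of all loci was smaller, from 0.04 to 0.13, and that of the higher loci lay between 0.51 and 0.61. Between 1-MCP fruit after shelf life and control fruit in the cold the median was 0.55 over the higher loci and 0.06 over all, with 30.1% against 11.6% at least 1 unit higher.

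Within kinds the same difference after shelf life had a median of 0.88 over the 1516 higher unannotated loci, where all unannotated loci had 0.42. Over the 1088 higher assembled loci with a gene model it was 0.57, against 0.24 for all loci of that kind. For the 463 higher gene models without an assembled locus it was 0.65, against 0.16. In each kind the loci chosen as higher thus stood above the others of their kind with 1-MCP after shelf life.

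The 3578 lower loci had a median of 17.2 FPKM at harvest and 4.44 FPKM in stored 1-MCP fruit. Outside the comparison their median was 6.96 FPKM in control fruit in the cold, 6.42 FPKM in control fruit after shelf life and 4.90 FPKM in 1-MCP fruit after shelf life. After shelf life the difference between 1-MCP and control fruit had a median of -0.11 over them, against 0.28 over all loci, and 26.8% were at least 1 unit lower with 1-MCP, where 7.35% of all loci were. At the same time 19.1% of them were at least 1 unit higher with 1-MCP, where 14.6% of all loci were. The lower loci thus spread to both sides. By kind, the median of this difference was -0.29 over the 1298 lower gene models without an assembled locus, against 0.16 for all of that kind. Over the 1620 lower assembled loci with a gene model it was -0.07, against 0.24. Over the 660 lower unannotated loci it was 0.08, against 0.42, with 21.1% at least 1 unit higher and 20.5% at least 1 unit lower. Of all unannotated loci, 19.5% were at least 1 unit higher and 4.78% at least 1 unit lower. In each kind the lower loci thus had a median below that of all loci of their kind. Between 1-MCP fruit after shelf life and control fruit in the cold, the 3578 lower loci had a median of -0.31. Of them 30.2% were at least 1 unit lower, against 9.24% of all loci.

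The change of control fruit during shelf life had like medians over the chosen loci and over all, with wider tails in the chosen sets. The difference between the sets was not tested. The median change was -0.19 over the higher loci, -0.16 over the lower loci and -0.19 over all 42287. At least 1 unit higher after shelf life in control fruit were 6.42% of the higher loci and 9.22% of the lower ones, against 3.71% of all loci. At least 1 unit lower were 13.1% and 14.8%, against 7.27%. Both sets thus held larger shares of differing loci in either direction. By kind, the higher gene models without an assembled locus had a median of -0.45, against -0.28 for all of that kind. With trimmed mean scaling the medians of the chosen sets lay at -0.018 and 0.00098, and that of all loci at -0.01.

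**Figure D5:**
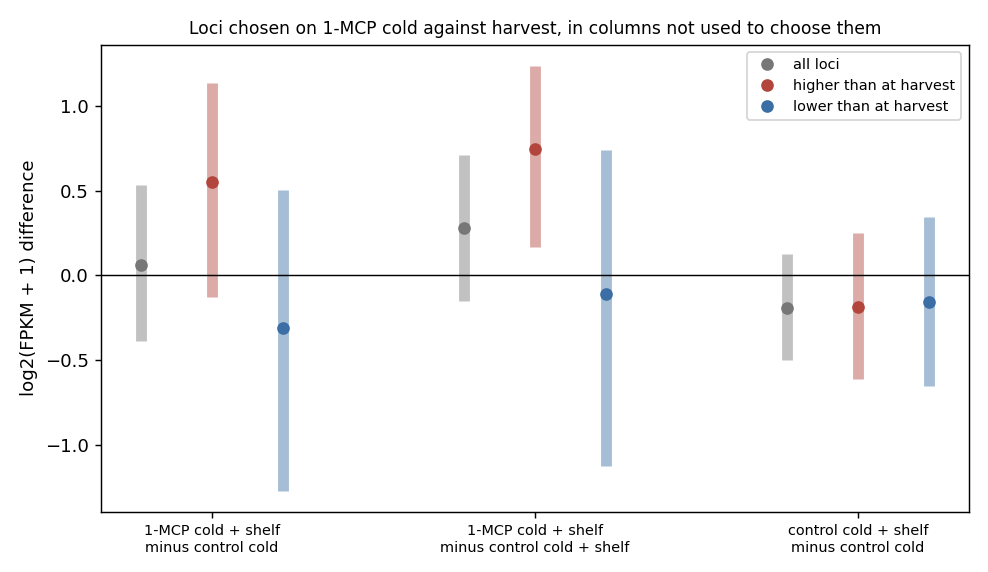
Median (points) and range from the 25th to the 75th percentile (bars) of 3 differences in log2(FPKM + 1) between groups that were not used to choose the loci, for all 42287 loci, the 3067 higher and the 3578 lower loci. In both differences of 1-MCP fruit after shelf life from control fruit, the higher loci (medians 0.55 and 0.74) lie above all loci and the lower loci (medians -0.31 and -0.11) below, while the medians of the control shelf-life difference lie between -0.19 and -0.16.

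Stored 1-MCP fruit stood apart from all the other groups at fewer loci than harvest did. The design does not put these counts on an equal footing. Harvest was the only group without storage, while stored 1-MCP fruit shared its storage or its treatment with each other stored group. Some loci above all others at harvest also passed the filter only through harvest. At 1302 of the 42287 loci the harvest value was at least 1 log2 unit above each of the other 4 values, and at 214 loci at least 1 unit below them. For stored 1-MCP fruit there were 294 loci above and 154 below all the others, and for control fruit in the cold 289 and 335. After shelf life the numbers were 523 above and 1155 below in control fruit, more in sum than at harvest, and 133 above and 260 below in 1-MCP fruit. These counts used unscaled values and were not repeated under other scalings. Control fruit after shelf life had the lowest median of the 5 groups over the loci compared, 6.80 FPKM against 9.43 FPKM at harvest. Of the 294 loci, 104 were assembled loci with a gene model, 87 were unannotated and the other 103 were gene models with no assembled locus. Among all loci compared these kinds numbered 23509, 11977 and 6801, so gene models with no assembled locus held a larger share of the 294 than of all loci. This was not particular to stored 1-MCP fruit. Gene models of this kind were also 513 of the 1302 loci above all others at harvest. In control fruit they were 132 of 289 in the cold and 209 of 523 after shelf life, and in 1-MCP fruit after shelf life 22 of 133. CUFF.42628, CUFF.6274 and CUFF.28291 are among the 294.

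The condition on 0 set 842 loci apart, and some of them were abundant. Since a 0 may stand for an estimate that failed, no fold is given for them. At 119 of these loci harvest was listed at 0 and stored 1-MCP fruit had at least 1 FPKM, and at 151 the reverse held. The following loci were chosen after their values had been seen, as the most abundant in each direction. MDP0000285074 was listed at 0 at harvest, at 99072 FPKM (3.56% of the summed FPKM) in stored 1-MCP fruit and at 120570 FPKM in 1-MCP fruit after shelf life. Control fruit had it at 81035 and 14879 FPKM. MDP0000341480 was at 2760 FPKM at harvest and listed at 0 in the 4 stored groups.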

How the data were processed

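Skin RNA of 15 samples in 5 groups was sequenced, per the labels' protocols, from non-directional TruSeq libraries on a HiSeq 1000 as 100 bp reads. The authors deposited FPKM values, written with decimal commas, in 1 column per group. TopHat2, Cufflinks and Cuffdiff are named in the submitters' processing notes. The version of each tool, the genome build, the annotation and any scaling between libraries were not given in the sources used here. Columns were matched to groups by the sample titles.

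From these values, log2(FPKM + 1) differences were computed with Python 3.11.15 and pandas 2.3.3 over loci with a mean of at least 1 FPKM and no 0, and a locus was called at a difference of at least 1. With 1 value per group no test, error or replicate check was possible. A fit on values per library would have been used had the table held them. Code was tested on simulated data. Members and lists were chosen with earlier results of these data known.

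Named loci, which reached at least 5 FPKM in either group compared, were the 2 largest differences per direction and kind of locus, the 2 largest gains and losses in FPKM, and the 2 per direction most opposed to control fruit. Alternatives were 3 scalings (75th percentile, mean of log ratios with 30% trimmed at each end, quantile), pseudocounts of 0.1 and 5, 3 filters on the mean, loci at 0 kept, and a threshold of 2. Counting loci of identical values once was added after seeing the data.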

Additional observations from a re-analysis of the deposited data

Results flagged for a closer look

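With 1 value per group, the following differences between treatments were not tested. At 4 loci the difference from harvest after 2 months of cold had opposite directions in 1-MCP and control fruit, and the difference between 1-MCP and control fruit was large. It was 6.37 log2 units at MDP0000758881, 6.93 at CUFF.34021, -6.49 at MDP0000280820 and -6.47 at CUFF.41317. These are the loci that the naming rule picked for being most opposed, so their size is set by that choice.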

How the results depend on the processing

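No paired analysis was possible because values per library are lacking for all groups, so the replicate block and the omission of single replicates were not run. Of 99 counts obtained with other settings, 78 lay within 1.5 times those given above. A pseudocount of 5 gave 3270 loci, 1328 higher and 1942 lower, and a threshold of 2 gave 1274 loci, 391 higher and 883 lower. A mean of at least 5 FPKM left 2040 higher loci. These settings lower counts by construction. With no filter on the mean, the median of gene models without an assembled locus was -0.092. The difference of 1-MCP from control fruit after shelf life had a median over the lower loci of -0.28 with 75th percentile scaling, -0.33 with trimmed mean scaling, -0.35 with quantile normalization and -0.64 with a threshold of 2. At that threshold the difference of 1-MCP fruit after shelf life from control fruit in the cold had a median of -0.74 over the lower loci. The control shelf-life change over the higher and the lower loci was -0.038 and -0.034 with 75th percentile scaling, -0.018 and 0.00098 with trimmed mean scaling, and 0.0069 and 0.022 with quantile normalization. With a threshold of 2 it was -0.30 over the higher loci. Counting loci of identical values once, chosen after seeing the data, gave 3042 higher and 3515 lower loci. Of 200 values of named loci under alternatives, 193 stayed within 1.5 times or 0.1 log2 units of the value reported and 0 called loci changed sign. Without a known depth, no precision can be given for loci at low FPKM.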

Other observations

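Assembled loci with consecutive CUFF numbers had weakly similar differences between stored 1-MCP fruit and harvest. Across 26523 pairs of loci 1 number apart, Pearson's r was 0.14 and Spearman's rho 0.13, as a description, since the pairs come from the same columns and are not independent. At 5 numbers apart r was 0.02, over 25699 pairs. The table does not say how the numbers relate to position in the genome.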
